A study of Homo sapiens with 6 samples.

Results

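Feedback genes that restrain mitogen-activated protein kinase (MAPK) signalling, 10 in all, were followed in A549, a cell line derived from a human lung adenocarcinoma. They were 8 dual-specificity phosphatase genes (DUSP1, DUSP2, DUSP4, DUSP5, DUSP6, DUSP7, DUSP8 and DUSP10) and 2 Sprouty genes (SPRY2 and SPRY4), taken by symbol from the 62703 genes of a table of RNA sequencing read counts. All 10 were found. The cells were grown in S-AlgLung hydrogel (3 libraries) or in AlgLung hydrogel (3 libraries). Both groups came from the same line kept in serum-containing medium, and no other treatment was labelled. The labels do not spell out the S or the make-up of either gel; the series as a whole concerns sulfation of the extracellular matrix. Nothing in the labels ties the libraries of a gel to separate cultures, so the p-values speak of the spread among these libraries alone, and part of that spread may be technical.

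MAPKs (ERK, JNK and p38) are switched on when upstream kinases phosphorylate a threonine and a tyrosine in their activation loop, and the DUSP phosphatases studied here remove both phosphates. Many DUSP and Sprouty genes are themselves transcribed in response to MAPK activity, so that their products act as negative feedback; Sprouty proteins act higher up, between growth factor receptors and RAF.

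Total counts were 24132875 to 26495444 in S-AlgLung and 22978408 to 23682120 in AlgLung. S-AlgLung replicate 3 stood apart from all other libraries. MALAT1 and NEAT1, noncoding RNAs kept in the nucleus, made up 0.0264% of its counts, against 0.00398% to 0.00736% in the other 5, and it had a count for 28413 genes, against 25729 to 26007. Epithelial and A549-typical genes were abundant in both gels, with AKR1B10 at 4022 to 5576 CPM in S-AlgLung and 4190 to 5167 CPM in AlgLung (CPM, read counts scaled to library size with TMM factors). Of 12 such markers 11 could be tested and edgeR called 0 (1 higher at an unadjusted p under 0.05, 0 by DESeq2 and by limma-voom), with EPCAM low at 2.99 to 5.4 CPM in S-AlgLung and 1.53 to 2.34 CPM in AlgLung and SFTPC, the surfactant protein C gene, at 5 counts in all. Fibroblast markers summed to 8.28 to 10.2 CPM in S-AlgLung and 9.58 to 9.85 CPM in AlgLung, with DCN at 1 count in all. Blood and endothelial markers summed to 46.5 to 73.3 CPM in S-AlgLung and 32.8 to 39.9 CPM in AlgLung, nearly all of it from CD14, which rose, while PTPRC had 5 counts in all libraries and CD3E had 2. The log2 fold change of CD14 was 0.85 (edgeR adjusted p = 0.0225); the call was lost without any 1 of 5 libraries (adjusted p of 0.06995 to 0.246) and held without S-AlgLung replicate 3 (1.01).

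DUSP1 and DUSP5, both coding for nuclear phosphatases, were the members that rose in S-AlgLung. DUSP1 was 4.21-fold and DUSP5 2.20-fold as high as in AlgLung, and both were called whichever library was left out. In bulk RNA, more cells with a transcript and more of it per cell cannot be told apart. The other 7 tested members did not pass the threshold, and DUSP2 had too few counts to test. Of the 9 tested members 2 were called higher and 0 lower by edgeR's quasi-likelihood test at an adjusted p under 0.05, where 3.15% of all 18544 tested genes were called higher and 1.99% lower. DESeq2 and limma-voom also called 2 members higher and 0 lower, and at an unadjusted p under 0.05 there were 3 higher and 0 lower, where 14.9% of all tested genes passed in either direction. Total-count scaling shifted the median of all genes by -0.1 on the log2 scale, with all genes called higher at 333 and all genes called lower at 335 in place of 584 and 369; the members' calls were the same. The median log2 fold change of the 9 was 0.11, beside 0.03 for all tested genes. In 5 of the 9 the values of the gels did not overlap, 4 higher and 1 lower in S-AlgLung, beside 18.4% of all tested genes.

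Reference promoter sequence was read for 8 members from RefSeq (GRCh38.p14), as the 250 bases before an annotated start. No window was read for DUSP5. None was read for DUSP4 either, as starts on its chromosome, 8, were left out of the member search but kept in the shares over all windows. The windows of DUSP1, which rose, and of DUSP8, which did not pass the threshold and had lower values in S-AlgLung, are shown because both hold the cAMP response element (CRE) TGACGTCA, a site known to be bound by factors of the CREB and ATF families. Capitals mark TGACGTCA, its shorter core TGACG on either strand (found within the full site as well) and the TATA box TATAAA. The DUSP1 window is chr5:172771196-172771445 and the DUSP8 window chr11:1572272-1572521, both on the minus strand and written 5′ to 3′.
DUSP1: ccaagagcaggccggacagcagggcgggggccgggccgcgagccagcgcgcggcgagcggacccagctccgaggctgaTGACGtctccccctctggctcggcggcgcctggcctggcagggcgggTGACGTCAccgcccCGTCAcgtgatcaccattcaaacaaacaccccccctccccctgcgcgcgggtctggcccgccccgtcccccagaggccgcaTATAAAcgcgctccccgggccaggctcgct
DUSP8: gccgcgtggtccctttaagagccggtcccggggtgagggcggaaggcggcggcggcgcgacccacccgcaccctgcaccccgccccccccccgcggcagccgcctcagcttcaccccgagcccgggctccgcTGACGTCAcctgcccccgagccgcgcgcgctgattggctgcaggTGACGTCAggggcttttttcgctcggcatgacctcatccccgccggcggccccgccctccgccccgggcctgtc
DUSP1 had 1 CRE, 125 to 118 bases before the start, 2 further cores and a TATA box 30 to 25 bases before the start. DUSP8 had 2 CREs, 118 to 111 and 74 to 67 bases before its start, and no match to TATAAA. The full CRE was found on either strand in 1.65% of 35116 RefSeq promoter windows of the same length, the core in 21.2% and TATAAA in 10.7%. The windows of DUSP2, DUSP6, DUSP7, DUSP10, SPRY2 and SPRY4 held no match to the full CRE; SPRY2 and SPRY4 held 1 core each. None of the member windows read, which leave out DUSP4 and DUSP5, matched the AP-1 site TGANTCA (6.57% of all windows) or the CArG box of serum response factor (1.16%). Windows of JUN, FOS and ATF3, read in the same way, also matched neither site. That of EGR1 held 2 CArG boxes and no AP-1 site.

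DUSP1 codes for an inducible nuclear phosphatase of JNK, p38 and ERK. The gene (ENSG00000120129) spans chr5:172768096-172771195 (GRCh38) in 4 exons. It stood at 70.9, 88.5 and 219 CPM in S-AlgLung replicates 1, 2 and 3, against 27.4, 34.9 and 27.8 CPM in AlgLung. Every S-AlgLung library was above every AlgLung library, and replicate 3 was far above the other 2. The means were 126 ± 81.1 CPM in S-AlgLung and 30.0 ± 4.22 CPM in AlgLung (SD, n = 3 each), a log2 fold change of 2.07 (SE 0.31, edgeR adjusted p = 4.521e-05). S-AlgLung replicate 3 was 2.75 times the mean of replicates 1 and 2, a ratio exceeded by 1.26% of tested genes. Without that library the log2 fold change was 1.38 and the gene was still called (adjusted p = 3.934e-09). Over the 6 fits that left out 1 library it ranged from 1.38 to 2.36, with adjusted p of at most 0.00892.

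DUSP5 codes for a nuclear phosphatase that acts on ERK. Its gene (ENSG00000138166, chr10:110497907-110511533) had 73.5, 57.8 and 87.8 CPM in S-AlgLung, against 30.5, 35.6 and 33.4 CPM in AlgLung. The gels were well apart and the libraries within each were closer together than for DUSP1. The means were 73.1 ± 15 CPM in S-AlgLung and 33.2 ± 2.54 CPM in AlgLung, a log2 fold change of 1.14 (SE 0.22, edgeR adjusted p = 0.00147). Leaving out 1 library gave 0.95 to 1.28, with adjusted p of at most 0.0320, and 0.95 was the value without S-AlgLung replicate 3.

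DUSP4, a nuclear phosphatase of ERK and JNK, was the most abundant member. It had 543, 556 and 662 CPM in S-AlgLung, against 498, 463 and 478 CPM in AlgLung. The lowest S-AlgLung library was above the highest AlgLung library. DUSP4 had a log2 fold change of 0.29 (95% interval -0.22 to 0.80, edgeR adjusted p = 0.689), and 0.16 without S-AlgLung replicate 3. DUSP2, a nuclear phosphatase best known from blood cells, was at the edge of detection, with 5, 4 and 2 counts in the S-AlgLung libraries, against 0, 1 and 1 in AlgLung. The summed counts of 11 in S-AlgLung and 2 in AlgLung gave a ratio of 5.4 after scaling, with an exact 95% interval of 1.18 to 50.1 that covers counting error only.

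**Figure D1:**
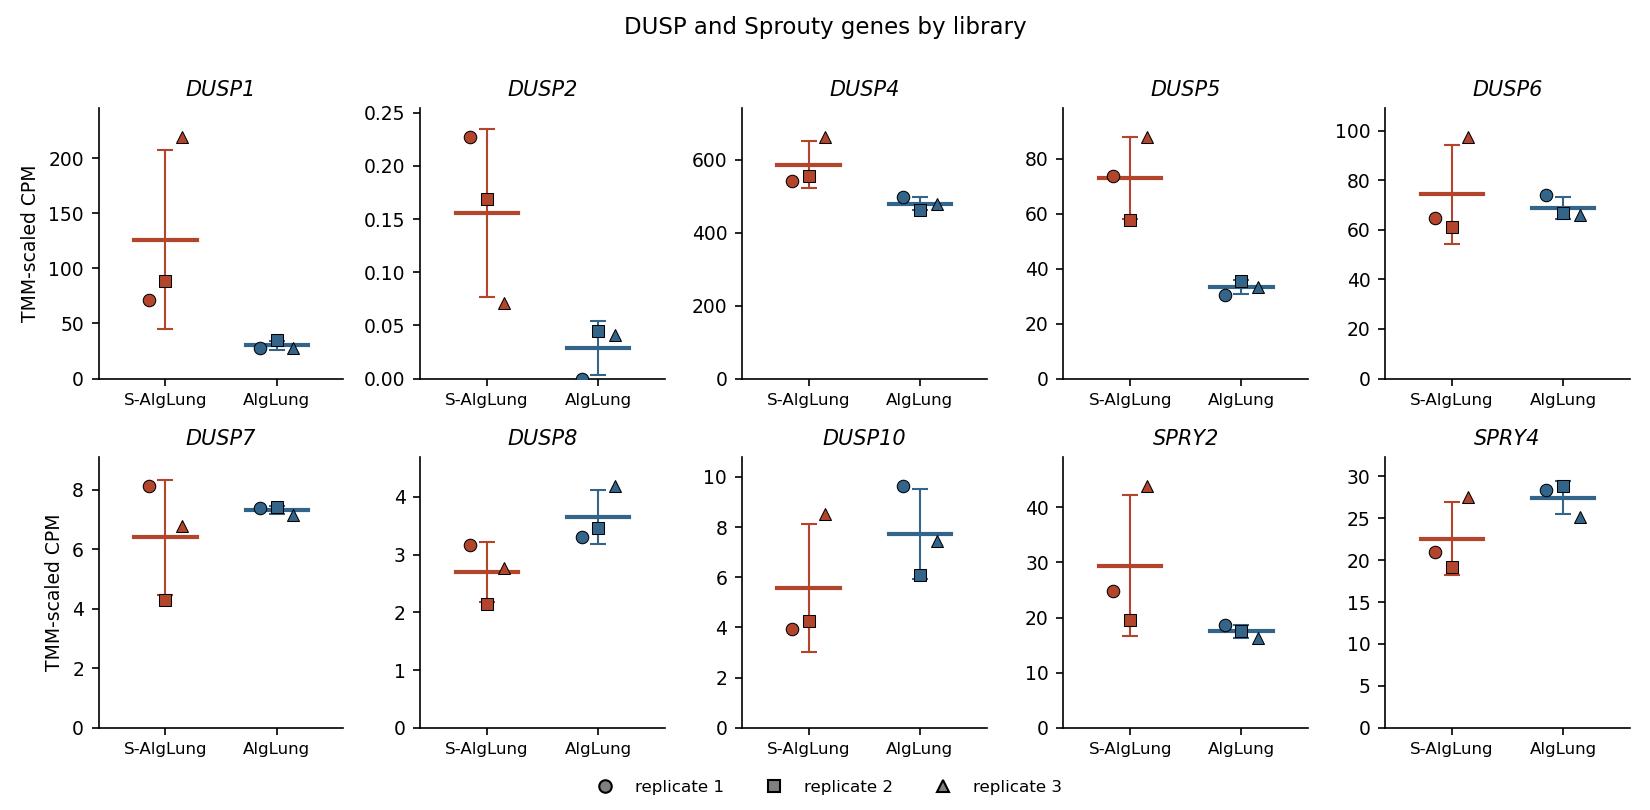
Expression of each member in TMM-scaled CPM (vertical axes, each starting at 0) for S-AlgLung on the left and AlgLung on the right of each panel; symbols are libraries, by replicate number, horizontal bars are means and whiskers 1 SD (n = 3). DUSP1 and DUSP5 show gels that lie far apart, and S-AlgLung replicate 3 (triangle) is the highest of the 6 libraries for DUSP1, DUSP4, DUSP5, DUSP6 and SPRY2.

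The cytoplasmic ERK phosphatases did not pass the test. DUSP6, a phosphatase selective for ERK and a much used readout of ERK activity, had 64.7, 61.2 and 97.4 CPM in S-AlgLung, against 74.0, 66.8 and 65.8 CPM in AlgLung. Replicates 1 and 2 of S-AlgLung were below all AlgLung libraries, while replicate 3 was above them. The log2 fold change was 0.11 (95% interval -0.36 to 0.59, edgeR adjusted p = 0.905) with all libraries and -0.16 without S-AlgLung replicate 3. A gene without a symbol on the other strand shares 1105 exon bases with DUSP6 and had 35.3% of its counts; with strand handling not given in the sources used here, reads of the pair cannot be told apart. DUSP7, its close relative, had 8.12, 4.31 and 6.79 CPM in S-AlgLung, against 7.40, 7.42 and 7.16 CPM in AlgLung. The S-AlgLung libraries lay on both sides of the AlgLung values, which were nearly equal. For DUSP7 the log2 fold change was -0.19 (95% interval -0.71 to 0.32, adjusted p = 0.821), and 0.02 without S-AlgLung replicate 2.

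The phosphatases that prefer JNK and p38 had lower values in S-AlgLung without passing the test. DUSP10, which acts on JNK and p38, had 3.94, 4.26 and 8.53 CPM in S-AlgLung, against 9.62, 6.07 and 7.45 CPM in AlgLung. Replicates 1 and 2 of S-AlgLung were below every AlgLung library and replicate 3 was within their range. With all libraries the log2 fold change was -0.46 (95% interval -1.03 to 0.11, edgeR adjusted p = 0.489). Without S-AlgLung replicate 3 it was -0.94 and DUSP10 was called lower (adjusted p = 0.00518), in a fit where 4.75% of tested genes were called higher and 3.53% lower. DUSP8, with the same preference, had 3.17, 2.15 and 2.77 CPM in S-AlgLung, against 3.30, 3.46 and 4.18 CPM in AlgLung. All 3 S-AlgLung values were below all AlgLung values, with 199 counts in S-AlgLung and 264 in AlgLung behind them. For DUSP8 the log2 fold change was -0.43 (95% interval -1.02 to 0.15, adjusted p = 0.542).

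The Sprouty genes differed in sign. SPRY2, an inhibitor of signalling from growth factor receptors to RAS and RAF, had 24.9, 19.5 and 43.8 CPM in S-AlgLung, against 18.7, 17.5 and 16.3 CPM in AlgLung. The gels did not overlap, but replicate 2 of S-AlgLung was close to the highest AlgLung library. The log2 fold change was 0.75 (SE 0.25, 95% interval 0.25 to 1.25), and the edgeR adjusted p of 0.0809 missed the threshold. Leaving out S-AlgLung replicate 3 gave 0.31 (adjusted p = 0.419), while leaving out S-AlgLung replicate 2 gave 0.97 and a call (adjusted p = 0.00772). SPRY4, which inhibits the same route, had 21.0, 19.2 and 27.5 CPM in S-AlgLung, against 28.4, 28.8 and 25.2 CPM in AlgLung. Replicates 1 and 2 of S-AlgLung were below all AlgLung libraries and replicate 3 was among them. SPRY4 had a log2 fold change of -0.28 (95% interval -0.72 to 0.15, adjusted p = 0.619) and -0.48 without S-AlgLung replicate 3 (adjusted p = 0.153).

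**Figure D2:**
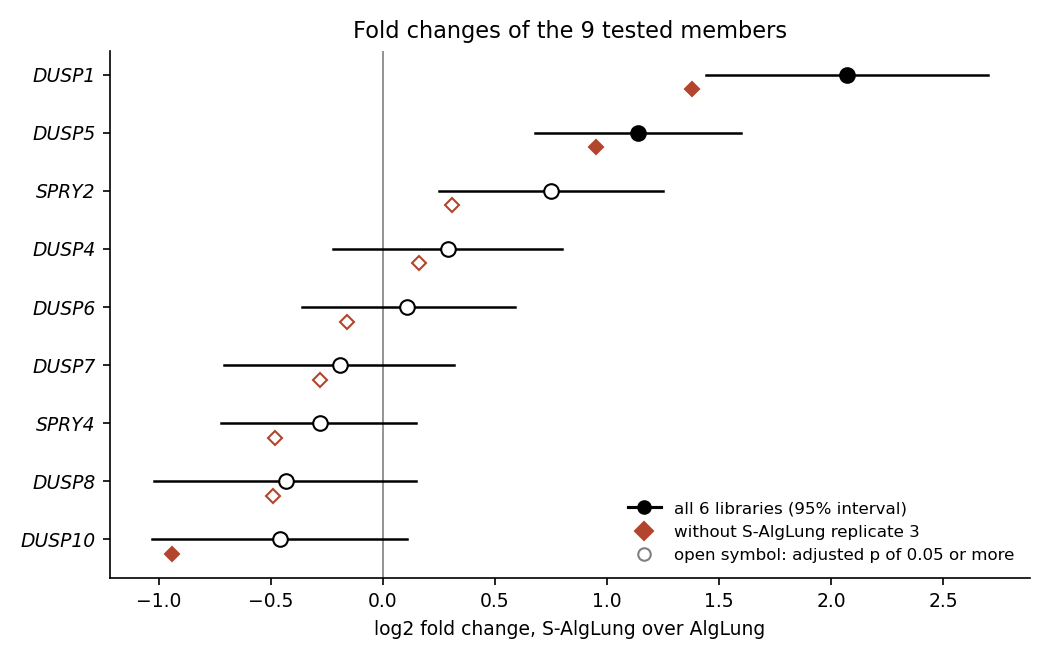
Log2 fold change of S-AlgLung over AlgLung (horizontal axis) for the 9 tested members; circles and lines are the edgeR estimate with its 95% interval from all 6 libraries, red diamonds the estimate without S-AlgLung replicate 3, and filled symbols have an adjusted p under 0.05. DUSP1 and DUSP5 are filled in both fits, the estimate for SPRY2 is 0.75 with all libraries and 0.31 without that library, and that for DUSP10 is -0.46 and -0.94.

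S-AlgLung replicate 3 was high for several members. It was the highest of the 6 libraries for 5 of the 9 tested members, beside 29% of all tested genes. Its level was 2.08 times the mean of the other 2 S-AlgLung libraries for DUSP10, 1.97 times for SPRY2 and 1.55 times for DUSP6, ratios exceeded by 3.82%, 4.79% and 14.1% of tested genes. For DUSP7 and DUSP8 it was 1.09 and 1.04 times, close to the median of 1.04 over all tested genes. The same library had 49.2 CPM of MALAT1, against 13.2 and 8.11 CPM in S-AlgLung replicates 1 and 2 and 8.90 to 11 CPM in AlgLung; the part of its RNA make-up in these values was not tested. The members that were higher in replicates 1 and 2 of S-AlgLung than in all AlgLung libraries were DUSP1, DUSP4, DUSP5 and SPRY2, and DUSP2 at a few counts.

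**Figure D3:**
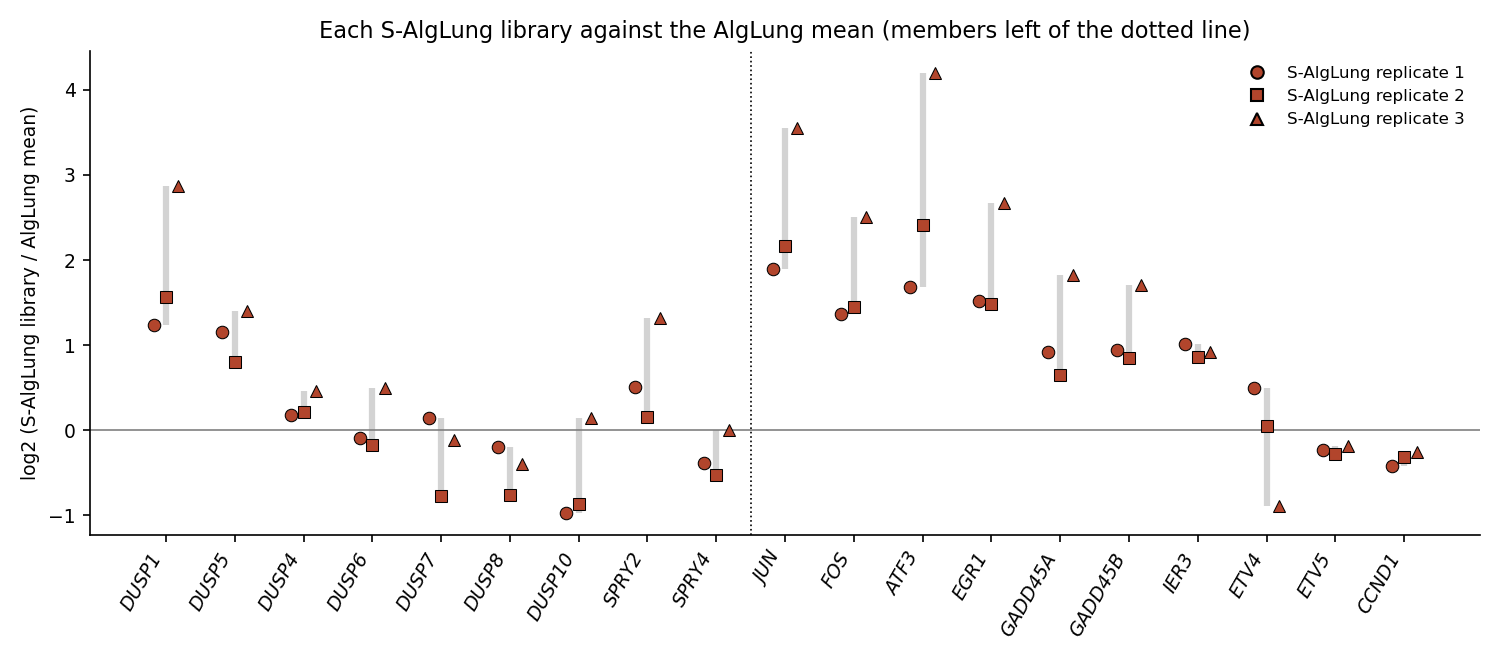
Log2 ratio of each S-AlgLung library to the AlgLung mean (vertical axis, 0 is the AlgLung mean) for the 9 tested members, left of the dotted line, and for genes of the immediate early, GADD45 and ERK target lists on the right; grey bars span the 3 libraries. DUSP1 is at 1.24, 1.56 and 2.87 in replicates 1, 2 and 3, and DUSP6, DUSP10 and SPRY4 are below 0 in replicates 1 and 2.

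Per base of exon, DUSP4 also led. Counted as CPM per kilobase of exon length, its level was 80.7 ± 8.95 in S-AlgLung and 66.0 ± 2.43 in AlgLung (SD, n = 3 each). DUSP1 followed in S-AlgLung at 62.7 ± 40.3, a spread that reached DUSP4 above and DUSP5 (28.8 ± 5.91) below. In AlgLung DUSP6 came second at 17.8 ± 1.16, with DUSP1 (14.9 ± 2.10) and DUSP5 (13.1 ± 1.0) within about their spread of each other. DUSP6 was at 19.3 ± 5.17 in S-AlgLung. SPRY2 had 9.16 ± 3.97 in S-AlgLung and 5.45 ± 0.379 in AlgLung, while SPRY4 had 3.44 ± 0.666 in S-AlgLung and 4.19 ± 0.297 in AlgLung. DUSP10, DUSP7 and DUSP8 were at 1.97, 1.13 and 0.544 in S-AlgLung and at 2.73, 1.29 and 0.735 in AlgLung, and DUSP2 was last at 0.0806 in S-AlgLung and 0.0149 in AlgLung. By CPM averaged over all libraries DUSP4 lay above 98.8% of tested genes and DUSP8 above 27.3%.

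In GRCh38, DUSP2 at chr2:96143169-96145440, DUSP6 at chr12:89347235-89352501, DUSP7 at chr3:52048919-52056571, DUSP8 at chr11:1554051-1572271, DUSP10 at chr1:221701424-221742089, SPRY2 at chr13:80335976-80341126 and SPRY4 at chr5:142310427-142326455 complete the positions of the members other than DUSP4. Gene spans of the members ran from 2272 bases for DUSP2 to 40666 for DUSP10, with 2 to 7 exons in the longest coding transcript. GC content of the longest transcript was 55.1% for DUSP1 and 55.9% for DUSP5, and 45.6% (DUSP10) to 64.6% (DUSP8) over the members, beside a median of 49.5% over tested genes. The pentamer ATTTA, part of the AU-rich elements known to shorten mRNA life, occurred 1.98 times per kilobase in DUSP1 and 0 times in DUSP5, beside a median of 0.915 over tested genes.

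Among tested genes with a symbol and an average log2 CPM, as edgeR computes it, of at least 2, those nearest to DUSP1 over the 6 libraries were GAS5-AS1 and GAS5, each with a root mean square difference of 0.15 log2 units after centring. GAS5, a noncoding host gene of small nucleolar RNAs, had 71.2, 106 and 192 CPM in S-AlgLung, against 27.8, 37.2 and 31.9 CPM in AlgLung. GAS5-AS1 overlaps it on the other strand with 132 shared exon bases, so these may not be separate measurements. GAS5-AS1 had an average of 2.30 by edgeR but a plain mean of log2 CPM over the libraries of 1.86; with the limit set on the plain mean, a choice made after seeing the data, the nearest genes were GAS5 and FOS (difference 0.17). By either limit the genes nearest to DUSP5 were GPRC5B, a G protein-coupled receptor gene (difference 0.09), and PMP22, a membrane protein gene (difference 0.10). GPRC5B had 19.0, 17.4 and 22.9 CPM in S-AlgLung, against 9.20, 10.2 and 9.56 CPM in AlgLung, a log2 fold change of 1.03 (edgeR adjusted p = 0.00286). The log2 fold change of PMP22 was 0.98 (adjusted p = 0.00768), a call lost without AlgLung replicate 1, 2 or 3 (adjusted p = 0.107, 0.05704 and 0.09215). GPRC5B and PMP22 overlap genes on the opposite strand, whose counts came to 54.1% (IQCK) and 24.8% (a gene without a symbol) of theirs.

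The rest of the family showed no calls. Of 7 further MAPK phosphatase, Sprouty and SPRED genes, all tested, edgeR called 0, as did DESeq2 and limma-voom, with 1 higher at an unadjusted p under 0.05 and a median log2 fold change of 0.07. SPRY1, another Sprouty gene, had 10.8, 8.74 and 21.2 CPM in S-AlgLung, against 10.7, 9.80 and 9.77 CPM in AlgLung. As for SPRY2, S-AlgLung replicate 3 was high, and the log2 fold change was 0.43 (adjusted p = 0.488) with it and -0.08 without it. DUSP16, a JNK and p38 phosphatase, was at -0.21 (adjusted p = 0.760), DUSP9, an ERK phosphatase, at -0.61 (0.521) and SPRY3 at 0.18 (0.908). TMLHE lies on the opposite strand, shares 33 exon bases with SPRY3 and had 715% of its counts. The membrane-bound RAF inhibitors SPRED1 and SPRED2 were at 0.07 and 0.01, and SPRED3 was at 0.50 (adjusted p = 0.325). Leaving out S-AlgLung replicate 3 gave 0.67 and a call for SPRED3 (adjusted p = 0.0289), while leaving out S-AlgLung replicate 1 gave 0.21 (adjusted p = 0.805).

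Among 19 tested atypical DUSP and related phosphatase genes edgeR called 0, with DESeq2 and limma-voom also at 0, and 2 higher and 1 lower at an unadjusted p under 0.05 (median log2 fold change 0.10). PTP4A3, a membrane-anchored phosphatase, was at 0.78 (adjusted p = 0.0516), and STYX, a catalytically inactive relative that binds ERK, at -0.73 (adjusted p = 0.0900). With S-AlgLung replicate 3 left out these were called, at 0.97 and -0.89 (adjusted p = 0.000139 and 0.00353), among 3 higher and 1 lower in the list. In that fit 4.75% of tested genes were called higher and 3.53% lower. Without S-AlgLung replicate 1 the log2 fold change of PTP4A3 was 0.46 (adjusted p = 0.421).

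The kinases that these phosphatases oppose, and those above them, were tested as lists. Of 22 tested genes of the ERK cascade, from RAS to the RSK kinases, edgeR, DESeq2 and limma-voom called 0, with 1 lower at an unadjusted p under 0.05, and the median log2 fold change was -0.02. MAPK3, the ERK1 gene, had 56.5, 61.9 and 25 CPM in S-AlgLung, against 29.9, 40.2 and 29.7 CPM in AlgLung, with a log2 fold change of 0.52 (edgeR adjusted p = 0.350). Without S-AlgLung replicate 3 MAPK3 was called higher at 0.80 (adjusted p = 0.00255). Of 25 tested genes of the JNK, p38 and ERK5 cascades, 3 rose and 0 fell (median 0.10). Among all tested genes 3.15% were called higher and 1.99% lower. The 3 that rose were the GADD45 genes, whose products bind and activate MAP3K4. GADD45A had 17.8, 14.7 and 33.4 CPM in S-AlgLung, against 11.2, 8.54 and 8.53 CPM in AlgLung. It rose by 1.22 on the log2 scale (adjusted p = 0.00296), a call lost without AlgLung replicate 2 at 1.16 (adjusted p = 0.0721), and was at 0.76 without S-AlgLung replicate 3. GADD45B rose by 1.22 (adjusted p = 0.00181), and by 0.86 without S-AlgLung replicate 3. GADD45G rose by 2.04 (adjusted p = 0.00120), at low levels of 1.95 to 3.41 CPM in S-AlgLung and 0.373 to 1.07 CPM in AlgLung.

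Other feedback inhibitors of receptor and RAS signalling included 4 that rose and 0 that fell of 22 tested (median -0.13). Of all tested genes 3.15% were called higher and 1.99% lower. IER3, an early response gene, had 182, 164 and 171 CPM in S-AlgLung, against 81.5, 104 and 85.5 CPM in AlgLung (log2 fold change 0.93, edgeR adjusted p = 0.0138). LRIG1, a negative regulator of ERBB receptors, and its relative LRIG3 were higher by 0.76 and 0.82 (adjusted p = 0.0457 and 0.0454), and RGS16, a regulator of G protein signalling, by 1.91 at under 1 CPM in all libraries. The number called was 0 without S-AlgLung replicate 1 or AlgLung replicate 1 or 3, 1 (higher) without AlgLung replicate 2 and 1 (higher) with scaling by total counts. With S-AlgLung replicate 3 left out, 2 genes of the list were called higher and 2 lower, beside 4.75% and 3.53% of tested genes. DESeq2 called 4 and limma-voom 2. IER3 overlaps HCG20 and IER3-AS1 on the other strand, with 36.7% and 34.4% of its counts, and LRIG1 overlaps SLC25A26, with 144%.

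Transcripts used elsewhere as readouts of ERK activity were mixed. Such genes outside the members, 20 tested, had a median log2 fold change of 0.00. EGR1 and IER3 rose and 0 fell, where 3.15% of all tested genes were called higher and 1.99% lower. Both are counted in another list as well, IER3 among the feedback inhibitors and EGR1 among the immediate early genes, so these are not further calls. ETV4 had 481, 350 and 183 CPM in S-AlgLung, against 289, 408 and 319 CPM in AlgLung, a range wider in S-AlgLung than in AlgLung (log2 fold change 0.00, 95% interval -0.60 to 0.59). ETV5 (-0.23, adjusted p = 0.702) and CCND1, the cyclin D1 gene (-0.33, adjusted p = 0.584), had lower values in every S-AlgLung library than in any AlgLung library and did not pass. DHX8, on the opposite strand, had 42.4% of the counts of ETV4. The number called was 1 without S-AlgLung replicate 1 or AlgLung replicate 1 or 3.

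Immediate early genes are the class to which DUSP1 belongs. Of 24 tested, 11 rose and 0 fell, where 3.15% of all tested genes were called higher and 1.99% lower. The median log2 fold change of the list was 0.83. At an unadjusted p under 0.05, 14 were higher, where 14.9% of all tested genes passed in either direction. JUN had 93.6, 114 and 297 CPM in S-AlgLung, against 28.7, 22.9 and 24.2 CPM in AlgLung, and FOS 60.8, 64.2 and 134 CPM in S-AlgLung, against 23.3, 27.9 and 19.5 CPM in AlgLung. The order of the S-AlgLung libraries was that of DUSP1, with replicate 3 well above the others. The log2 fold changes were 2.73 for JUN, 1.87 for FOS, 3.16 for ATF3, 2.01 for EGR1 and 1.89 for KLF10 (edgeR adjusted p of at most 9.931e-05), and 2.01, 1.38, 2.06, 1.47 and 1.61 without S-AlgLung replicate 3, all still called. SRF (-0.07), NR4A1 (-0.16) and JUND (0.00) had adjusted p of 0.817 to 0.9999. The number of early genes called was 9 without S-AlgLung replicate 3, 5, 6 and 6 without AlgLung replicates 1, 2 and 3, and 6 with scaling by total counts.

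**Figure D4:**
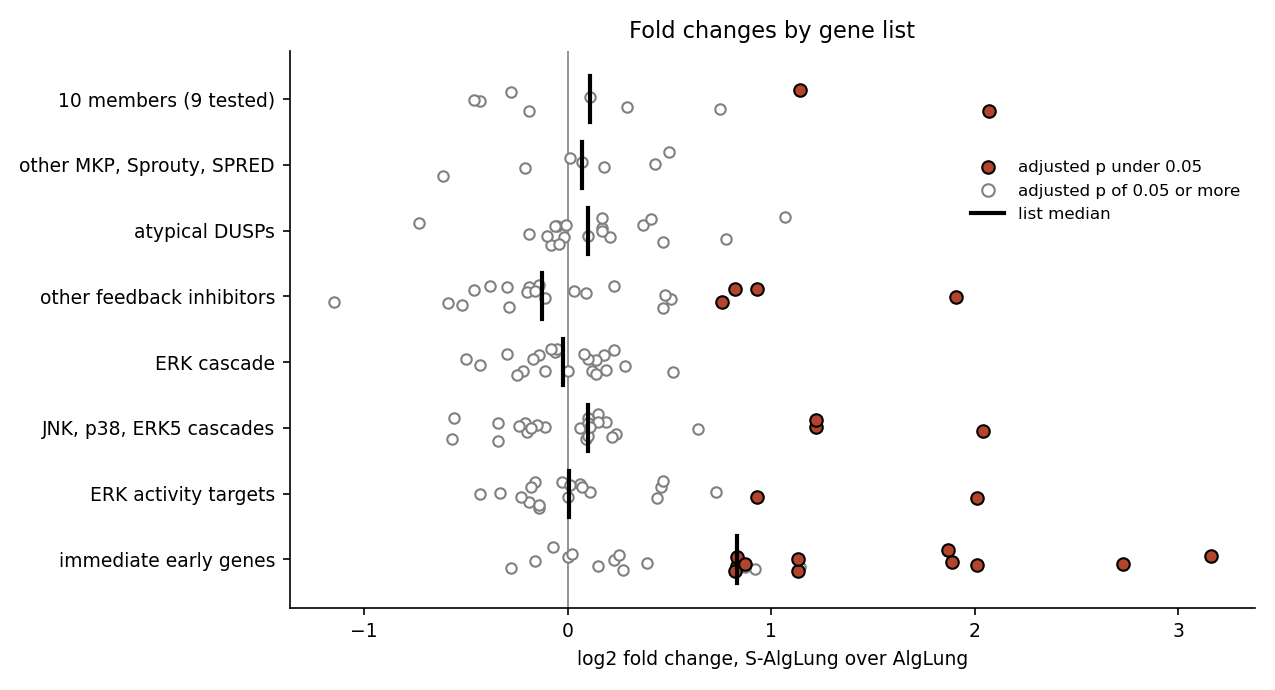
Log2 fold change of S-AlgLung over AlgLung (horizontal axis) for every tested gene of 8 lists; filled points have an edgeR adjusted p under 0.05 and vertical bars are list medians. The immediate early list has its median at 0.83 and 11 filled points, while the medians of the other lists lie between -0.13 and 0.11.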

How the data were processed

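RNA of A549 cells was sequenced in 6 libraries. Per the labels' protocols, TRIzol and a column kit were used for RNA, and library making, sequencing and adaptor trimming were done by a company. The authors' alignment used STAR 2.7.3a and GRCh38, with counting by featureCounts, per the submitters' processing notes; its version, annotation and strand handling, not given in the sources used here, could move reads between overlapping genes. The values deposited are whole, unnormalized read counts per gene. AlgLung replicate 1 had 2 columns that differed for 0 genes and was counted as 1 sample.

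Genes were filtered with filterByExpr (minimum count 10) and TMM-scaled. All 6 libraries were tested with edgeR 4.0.16 (quasi-likelihood, R 4.3.3), 2-sided, with Benjamini-Hochberg adjustment over all 18544 tested genes. Standard errors are the size of the log2 fold change over the square root of F. Alternatives included DESeq2 1.42.0 and limma 3.58.1 (voom), and the fits were tested on simulated data. There edgeR recovered 6% of 1.5-fold, 48% of 2-fold and 93.3% of 4-fold changes at an adjusted p under 0.05. A gene not called may thus still have changed by such smaller amounts. False calls made up 5.37% of the calls of edgeR, 4.66% of those of limma-voom and 10.6% of those of DESeq2. Simulated counts varied independently by gene, with 200 of 18544 genes changed. No simulated library departed across many genes at once, as S-AlgLung replicate 3 did, so these shares may not hold for the real libraries. The members and lists were chosen with earlier results of these data known, so counts over them are descriptions. Named genes were the members, the 7 further family genes, the leading genes of each list by p, genes fixed by name and the 2 nearest genes of each called member; other genes given were chosen after their values were seen.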

Additional observations from a re-analysis of the deposited data

How the results depend on the processing

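Of the 18 alternatives, the other column of AlgLung replicate 1 held the same counts, so its values were the same by construction. The rule of adjusted p under 0.01 kept the values of the main fit, so only its calls could differ. With these included, DUSP1 and DUSP5 were called in all 18, and 156 of 162 alternative values of members kept their direction and side of the threshold. The exceptions were SPRY2, called without a filter on low counts (0.73), with the replicate number as a block (0.67) and without S-AlgLung replicate 2 (0.97), DUSP10, called lower without S-AlgLung replicate 3 (-0.94), DUSP6, at -0.16 to 0.23 with 1 library left out (-0.16 without S-AlgLung replicate 3), and DUSP7, at -0.40 to 0.02 (0.02 without S-AlgLung replicate 2); the cause was not tested. With 1 library left out, 2 to 3 members were called higher and 0 to 1 lower, all genes called higher numbered 289 to 891 and all genes called lower 244 to 662. Total-count scaling gave 333 and 335, and 2 rules stricter by construction gave 323 and 217 (adjusted p under 0.01) and 264 and 188 (glmTreat at 0.5). The replicate block gave 3 members higher, and 800 genes higher and 500 lower; the deviations of same-numbered libraries correlated at 0.0721, 0.285 and 0.0413, and not every library correlated best with its own number, so the numbers were not taken as pairs. Among other genes, changes of sign were seen for SPRY1 (-0.08 to 0.67 with 1 library left out), NEAT1 (-0.12 to 1.28), ETV4 (0.00 with all libraries, -0.35 to 0.26), SPRED1 (-0.17 to 0.28, and -0.02 with total counts) and SPRED2 (-0.10 to 0.11, -0.01 with DESeq2 size factors, the DESeq2 test and no filter, -0.02 with upper-quartile factors, -0.05 with GC and length offsets and -0.09 with total counts). Depth limits genes under about 1 CPM, such as DUSP2.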
